A study of Mus musculus with 10 samples.

Results

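IGKV9-128 and IGKV3-9 are V gene segments of the mouse immunoglobulin kappa light chain locus (Igk), grouped here because most of their rearrangements were marked unproductive in B cells of the peritoneal cavity. Their members were every deposited Igk clonotype whose V gene was given as exactly IGKV9-128 or exactly IGKV3-9. A clonotype is 1 deposited row with a V gene, a J gene and a CDR3 amino acid sequence. A few rows of a library repeat the same 3 items. For IGKV9-128 in WT B-1a replicate 1, 261 rows held 259 distinct combinations. Distinct clonotypes below count each combination once. The rule gave 1179 of 44103 Igk clonotypes and 2 of the 103 Igkv genes that had any clonotype of their own. IGKV9-128 had 943 clonotypes with 24050 reads, and IGKV3-9 had 236 clonotypes with 3261 reads. The mark itself chose the genes, so the productive and unproductive shares of each gene below are descriptions without a test.

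Each developing B cell joins a kappa V segment to a J segment by cutting out or inverting the DNA between them. The join can shift the reading frame, and some V segments are pseudogenes, so a cell can carry a joined allele that makes no protein beside the allele that encodes its receptor. Such a passenger allele stays in the genome of the cell and of its daughters, and it is amplified from DNA together with the expressed allele. The locus keeps rearranging with further upstream V and downstream J segments, so the J gene bears on how early a join was made, with IGKJ1 nearest to the V segments and IGKJ5 the farthest functional J gene.

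The series amplified rearranged Igk from genomic DNA of sorted peritoneal cavity cells of C57BL/6 mice aged 6 to 8 weeks. There were 3 groups of 2 libraries each, namely wild-type B-1a cells, Igll1-/- B-1a cells, and wild-type B-2 cells. Igll1 encodes a component of the surrogate light chain, and without it a cell forms no pre-BCR, the receptor that normally tests the heavy chain before kappa rearrangement. All groups shared strain, age, tissue and primers, and no Igll1-/- B-2 library was analysed here. The data hold no transcripts, so neither the sort markers nor the loss of Igll1 could be checked in them.

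The libraries held 5701 to 8652 Igk clonotypes from 214000 to 288396 reads, and 11.4% to 13.6% of the clonotypes of a library were unproductive. Of all clonotypes, 57.7% to 59.2% rested on 1 read. Every row of these tables had both of the conserved residues that frame the CDR3, the cysteine before it and the phenylalanine after it. The labels do not say whether replicates came from separate mice, so the p-values rest on the spread between these libraries and may not extend to other mice. That spread exceeded sampling noise in each group (chi-square of the V gene counts 301, 780 and 164 with 101, 101 and 102 degrees of freedom for WT B-1a, Igll1-/- B-1a and WT B-2). No molecular barcode was used, so a read count mixes cells with amplification, and intervals cover counting error only.

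The CDR3s that held most of the reads are shown because the rest of the description turns on them. Those of IGKV9-128 all began with LQHASSP, and those of IGKV3-9 all began with MQSME. Each of the following was found in all 6 libraries, in the order of their total reads.
IGKV9-128 with IGKJ5: LQHASSPLT
IGKV9-128 with IGKJ1: LQHASSPWT
IGKV9-128 with IGKJ2: LQHASSPYT
IGKV3-9 with IGKJ5: MQSMEDPLT
IGKV3-9 with IGKJ2: MQSMEDPYT
IGKV3-9 with IGKJ5: MQSMEELT
LQHASSPLT, LQHASSPWT and LQHASSPYT together held 50.4% to 86.7% of the IGKV9-128 reads of a library, and they differ from each other only at the residue next to the last. MQSMEDPLT, MQSMEDPYT and MQSMEELT held 70.9% to 93.7% of the IGKV3-9 reads of a library. A CDR3 of 9 residues was the commonest in both genes, with 82.9% of IGKV9-128 and 72.9% of IGKV3-9 clonotypes.

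The 2 genes carried different annotations. All 943 IGKV9-128 clonotypes were assigned to an allele that the files tag P, for pseudogene, and RefSeq classes Igkv9-128 as a V segment pseudogene. All 236 IGKV3-9 clonotypes were assigned to an allele tagged F, for functional, and RefSeq classes Igkv3-9 as a V segment. Of IGKV9-128, 928 clonotypes (98.4%) were unproductive, and its 15 productive clonotypes held 16 reads. Of IGKV3-9, 224 clonotypes (94.9%) were unproductive, yet its 12 productive clonotypes held 2309 of its 3261 reads (70.8%). The description as mostly unproductive therefore held for IGKV9-128 by either measure and for IGKV3-9 by clonotypes only.

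**Figure D1:**
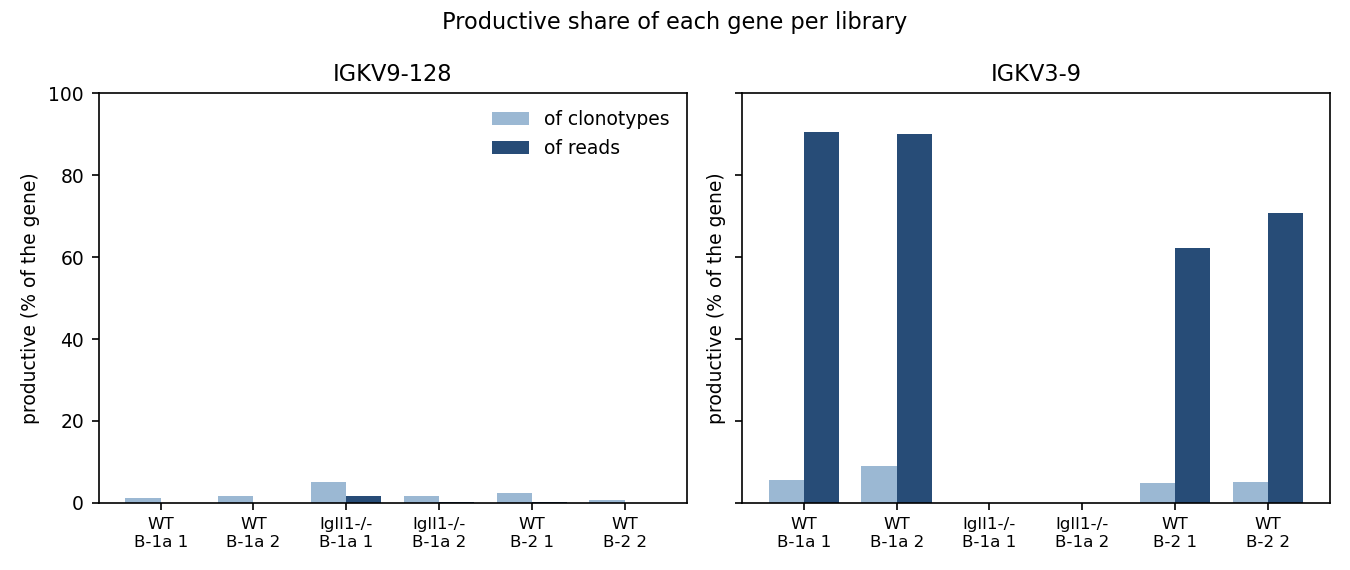
Productive share of each gene (vertical axis, % of the gene) in each of the 6 libraries (horizontal axis), counted over clonotypes (light bars) and over reads (dark bars). For IGKV3-9 the light bars stay at or under 9.09% while the dark bars reach 62.4% to 90.7% in the wild-type libraries and are at 0 in both Igll1-/- libraries.

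In WT B-1a cells, 418 of 461 IGKV3-9 reads in replicate 1 and 171 of 190 in replicate 2 belonged to productive clonotypes. In WT B-2 cells these were 802 of 1286 and 918 of 1296 reads. In Igll1-/- B-1a cells neither library had a productive IGKV3-9 clonotype, with 14 reads of the gene in each, all of them unproductive. The mark belongs to a clonotype as a whole, so its reads change their mark together, and the absence of productive reads there was not tested. By all its reads IGKV3-9 took 0.123% ± 0.0637 in WT B-1a, 0.00582% ± 0.00102 in Igll1-/- B-1a and 0.448% ± 0.00250 in WT B-2 (SD, n = 2 each).

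The mark of an IGKV3-9 clonotype moved with its sequence length and with its identity to the V gene. The mark, the length in bases and the identity of a row were read as describing the sequence that represents the clonotype. All 8 IGKV3-9 clonotypes with 100% identity were productive, and of the 228 below 100% only 4 were. Those 8 held 2305 reads and their sequences were 101 to 125 bases long. Of the 226 clonotypes with sequences over 125 bases, the longest of those 8, 223 were unproductive, against 1 of 10 at or under 125 bases. The 3 unproductive clonotypes with at least 100 reads had sequences of 139 to 155 bases and an identity of 98.99% to 99%. Other V genes with such lengths are given below, and whether the length sets the mark was not tested.

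The same IGKV3-9 CDR3 and J gene could carry opposite marks in different libraries. MQSMEDPLT with IGKJ5 was productive in WT B-1a replicate 1 (296 reads, 124 bases) and unproductive in WT B-1a replicate 2 (5 reads, 149 bases). In both Igll1-/- libraries it was unproductive (5 and 10 reads, 138 and 152 bases), and in both WT B-2 libraries productive (557 and 255 reads, 121 and 125 bases). MQSMEDPYT with IGKJ2 was productive in all 4 wild-type libraries (122, 171, 242 and 301 reads, 101 to 123 bases) and unproductive in both Igll1-/- libraries (3 and 2 reads, 146 and 142 bases). MQSMEELT was unproductive in WT B-2 replicate 1 (149 reads, 147 bases) and productive in WT B-2 replicate 2 (361 reads, 111 bases). For each of these CDR3s, every unproductive representative was longer than every productive one.

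In IGKV9-128, by contrast, sequences identical to the V gene were unproductive. Of its 230 clonotypes with 100% identity to the V gene, 229 were unproductive, and these 230 held 91.6% of its reads. All 18 clonotypes with at least 100 reads were unproductive, 17 of them at 100% identity, with a median sequence length of 280.5 bases and a range of 152 to 292. Clonotypes with sequences over 280 bases, the upper end of the size selection that the labels give, held 79.0% of IGKV9-128 reads, 0.0920% of IGKV3-9 reads and 10.01% of all Igk reads. The 15 productive clonotypes had 1 read each apart from 1 with 2 reads, and their median identity was 90.5%.

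**Figure D2:**
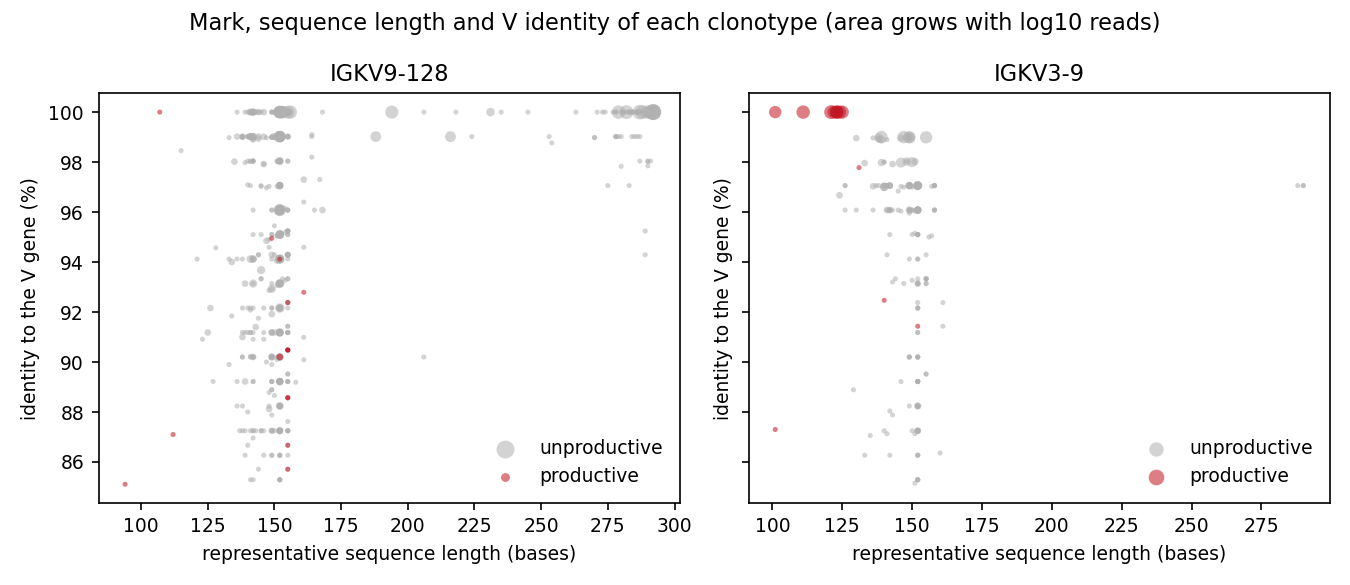
Each point is a clonotype of IGKV9-128 (left) or IGKV3-9 (right), by the length of its representative sequence in bases (horizontal axis) and its identity to the V gene in % (vertical axis), with an area that grows with log10 of its reads. Productive clonotypes are red and unproductive ones grey, and the 8 large productive IGKV3-9 points sit at 100% identity between 101 and 125 bases while the large IGKV9-128 points are grey and reach 292 bases.

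A stop codon within the CDR3 was rare in both genes. It was present in 40 of 928 unproductive IGKV9-128 clonotypes (4.31%), 21 of them with a CDR3 of more than 20 residues, and in 9 of 224 of IGKV3-9 (4.02%). Among unproductive clonotypes of all other V genes, 60.5% to 84.1% per library had such a stop. The listed CDR3 thus held no stop in 95.7% of unproductive IGKV9-128 and 96.0% of unproductive IGKV3-9 clonotypes, and the tables do not list the rest of the sequence. Among the V genes with at least 50 clonotypes the pair led the ranking by unproductive share. The next were IGKV9-129 (tagged ORF, 90.8%), IGKV9-120 (F, 89.8%), IGKV9-124 (F, 89.1%), IGKV14-130 (F, 54.0%) and IGKV9-123 (F, 50%), which are named after their values were seen, and stop codons lay in the CDR3 of 1.61% to 6.06% of their unproductive clonotypes. Median productive and unproductive lengths were 123 and 152 bases in IGKV3-9 and also in IGKV9-129. They were 126 and 152 in IGKV9-120, 129 and 152 in IGKV9-124, 159.5 and 152 in IGKV14-130, and 152 for both in IGKV9-123. Productive clonotypes held 44.7%, 76.6%, 33.3%, 93.6% and 89.8% of the reads of these 5 genes, in the order of the ranking.

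Most IGKV9-128 clonotypes were small and did not carry its common CDR3 start. The 196 clonotypes that began with LQHASSP (20.8%) held 21637 reads, 90.0% of the gene, at a median identity of 100%. The other 747 held 2413 reads at a median identity of 95.1%, and 484 of them (64.8%) rested on 1 read. For 364 of those 747 (48.7%), the same CDR3 and J gene was also listed under another V gene in the same library, against 16 of 196 (8.16%) with the common start. By reads the order was reversed. Those 16 held 19740 of the 21637 reads with the common start, and those 364 held 826 of the other 2413. For the 747, the genes most often so listed were IGKV8-30 (78 clonotypes), IGKV5-48 (77) and IGKV6-17 (76), named after their values were seen. A case was LQHGESPYT with IGKJ2, which had 58 and 108 reads under IGKV9-128 in the WT B-1a libraries, where the same CDR3 and J had 18300 and 17325 reads under IGKV14-126. The Igll1-/- libraries had 123 and 138 such reads under IGKV14-126 and 0 under IGKV9-128. The WT B-2 libraries had 1025 and 914 under IGKV14-126 and 0 and 1 under IGKV9-128. For this CDR3 only the members and IGKV14-126 were looked at, and the absence in Igll1-/- cells, at so few reads, was not tested. How such rows arose was not tested.

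For IGKV3-9 the division was less uneven. The 99 clonotypes beginning with MQSME (41.9%) held 93.6% of its reads at a median identity of 97.1%, and the other 137 held 208 reads at 93.3%. Of those 137, 41 (29.9%) had their CDR3 and J listed under another V gene in the same library, with 45 of the 208 reads. Of the 99, 7 (7.07%) were so listed, with 1655 of 3053 reads. Rows whose CDR3 differed by at most 1 residue from a row of the same library, V and J with at least 10 times its reads made up 45.5% of IGKV9-128 and 57.6% of IGKV3-9 clonotypes over all libraries. Per library they were 12.8% to 54.5% of IGKV9-128 clonotypes, against 61.7% to 66.2% of unproductive clonotypes of other genes. For IGKV3-9 they were 63.9% and 27.3% in WT B-1a, 0% in both Igll1-/- B-1a libraries, and 59.4% and 64.1% in WT B-2.

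**Figure D3:**
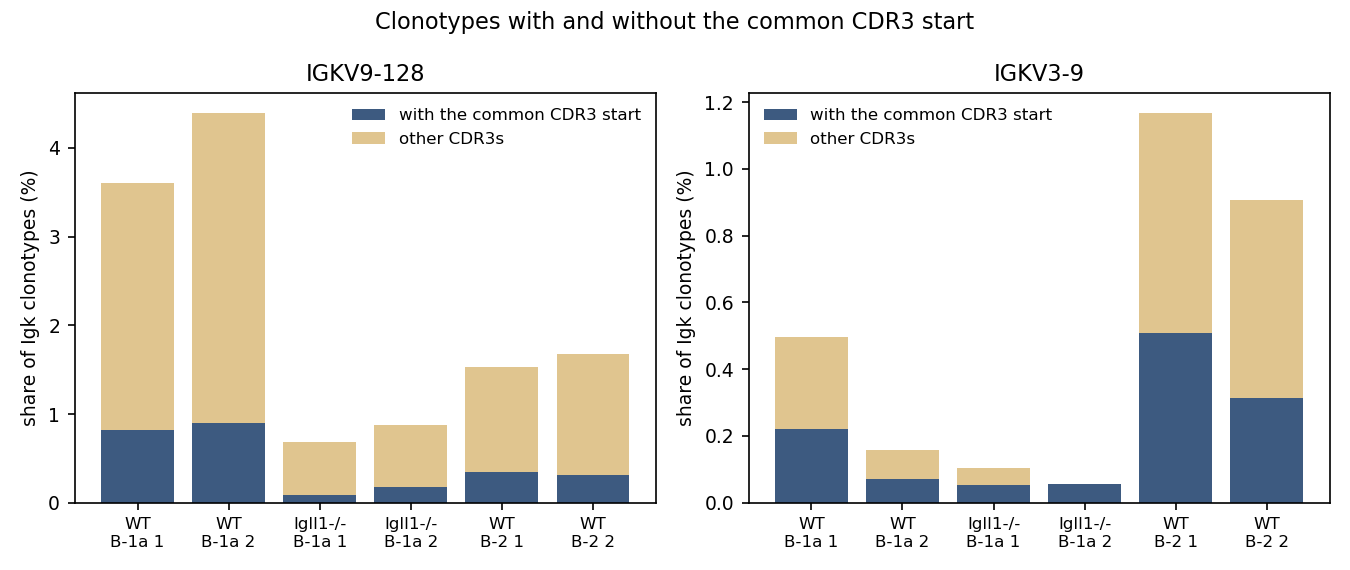
Share of all Igk clonotypes of a library (vertical axis, %) taken by IGKV9-128 (left) and IGKV3-9 (right), stacked as clonotypes with the common CDR3 start (blue, bottom) and with any other CDR3 (tan, top). Both layers of IGKV9-128 are highest in WT B-1a and lowest in Igll1-/- B-1a, and most of its height is the upper layer.

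IGKV9-128 took its largest share in wild-type B-1a cells and its smallest in Igll1-/- B-1a cells. Replicates 1 and 2 had 261 and 306 IGKV9-128 clonotypes for WT B-1a, 39 and 61 for Igll1-/- B-1a, and 132 and 144 for WT B-2. As a share of all Igk clonotypes this was 4.0% ± 0.556, 0.782% ± 0.138 and 1.60% ± 0.103 (SD, n = 2 each), and the libraries of no 2 groups overlapped, as was so for 25.0% of the 84 V genes tested. By reads the gene had 9297 and 9021, then 113 and 522, then 2418 and 2679, which was 3.53% ± 0.214, 0.122% ± 0.0972 and 0.884% ± 0.0641 of reads. Among unproductive clonotypes it was the commonest V gene in all 4 wild-type libraries and ranked 3 and 4 in those from Igll1-/- cells. Its part in WT B-1a, Igll1-/- B-1a and WT B-2 was 29.4% ± 4.38, 5.79% ± 1.26 and 13.6% ± 0.768 of unproductive clonotypes, and 75.6% ± 4.47, 7.80% ± 8.45 and 38.1% ± 3.52 of unproductive reads.

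IGKV3-9 had another order, with its largest share in wild-type B-2 cells. It had 36 and 11 clonotypes in WT B-1a, 6 and 4 in Igll1-/- B-1a, and 101 and 78 in WT B-2. The shares of all Igk clonotypes were 0.328% ± 0.240, 0.0814% ± 0.0337 and 1.04% ± 0.185 (SD, n = 2 each). It too was among the 25.0% of V genes without overlap between any 2 groups, but the WT B-1a replicates lay apart, at 0.498% (95% Wilson interval 0.360% to 0.688%) and 0.158% (0.0882% to 0.283%). The Wilson intervals of WT B-1a replicate 2 and of both Igll1-/- libraries overlapped. Among unproductive clonotypes IGKV3-9 ranked 2 in both WT B-2 libraries and between 4 and 39 in the others.

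**Figure D4:**
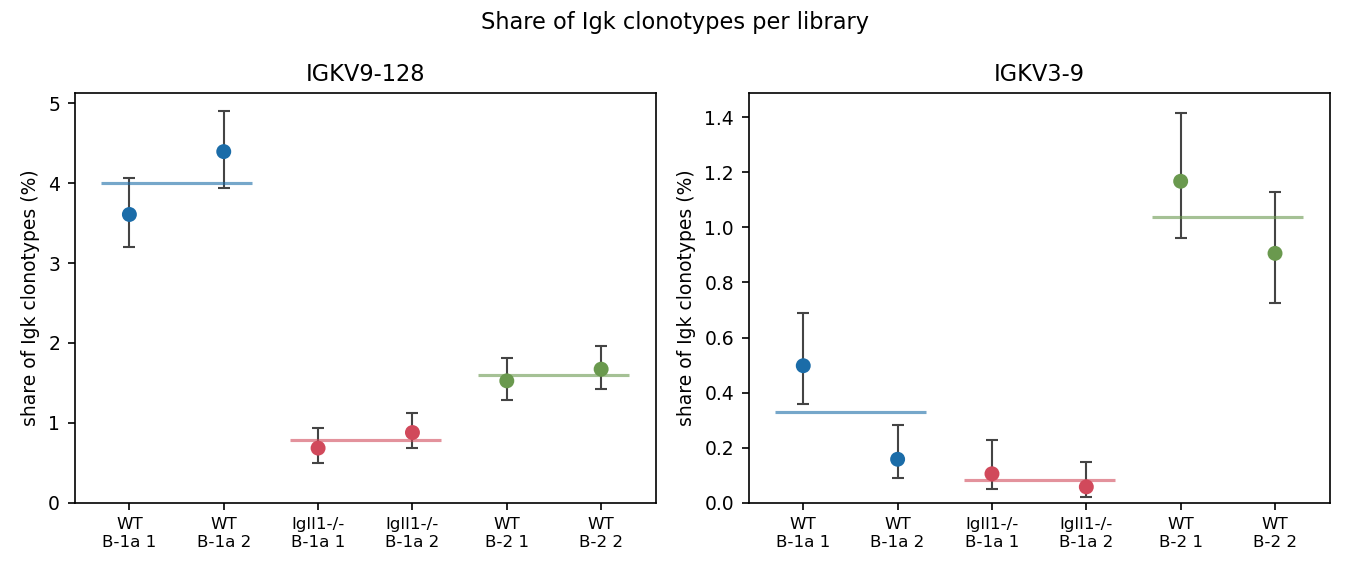
Share of all Igk clonotypes (vertical axis, %) for IGKV9-128 (left) and IGKV3-9 (right) in each library, with the 95% Wilson interval as a bar and the mean of each group as a horizontal line. IGKV9-128 averages 4.0% in WT B-1a, 0.782% in Igll1-/- B-1a and 1.60% in WT B-2, while IGKV3-9 averages 0.328%, 0.0814% and 1.04%.

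Whether the groups differed was tested with edgeR's quasi-likelihood test over the 84 V genes that reached 10 clonotypes in 2 or more libraries, with Benjamini-Hochberg adjustment. The 3 comparisons share libraries and are not independent of each other. A share of clonotypes can fall for several reasons, among them that the gene joined less often or that other genes gained clonotypes, and these cannot be told apart. A clonotype was not taken as 1 join. Of IGKV9-128 and IGKV3-9 clonotypes, 45.5% and 57.6% differed by at most 1 residue from a row with at least 10 times the reads. These are called near-identical below, and merging them was among the alternatives. The median log2 fold change of the 84 genes was -0.17 for Igll1-/- B-1a against WT B-1a, -0.49 for Igll1-/- B-1a against WT B-2, and -0.22 for WT B-1a against WT B-2.

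Between Igll1-/- and WT B-1a cells, 1 of the 2 members passed the threshold, where 17.9% of the V genes tested did. IGKV9-128 was 5.09-fold lower in Igll1-/- B-1a (log2 fold change -2.35, SE 0.25, adjusted p 5.63e-05), or -2.18 relative to the median gene. Its fall was already known when it was chosen for this description, so the p-value is not independent support. It stayed past the threshold in all 16 alternative settings, between -4.86 and -1.87. Counted only over clonotypes beginning with LQHASSP, the shares were 0.860% ± 0.0631 in WT B-1a, 0.130% ± 0.0603 in Igll1-/- B-1a and 0.330% ± 0.0235 in WT B-2, and the log2 fold change was -2.68 (SE 0.47, adjusted p 0.00218). IGKV3-9 had a log2 fold change of -2.02 (SE 0.67, adjusted p 0.0574), which did not pass. Without WT B-1a replicate 1 it was -0.97 (adjusted p 0.381), while it passed without WT B-1a replicate 2 (-2.61, adjusted p 0.0361) and without Igll1-/- B-1a replicate 1 (-2.48, adjusted p 0.0207).

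Between Igll1-/- B-1a and WT B-2 cells both members passed, where 22.6% of V genes did. IGKV3-9 was 12.7-fold lower in Igll1-/- B-1a (log2 fold change -3.67, SE 0.63, adjusted p 0.00165), or -3.18 relative to the median gene. That call held in 14 of 15 alternatives, and in the other, DESeq2, no adjusted p was given. The log2 fold change ranged from -6.26 by reads to -2.27 with near-identical clonotypes merged, and was -2.86 with only the common CDR3 start. Near-identical clonotypes were 59.4% and 64.1% of IGKV3-9 in WT B-2 and 0% in both Igll1-/- libraries. IGKV9-128 was 2.04-fold lower (-1.03, SE 0.25, adjusted p 0.0159), but -0.53 relative to the median gene, and it passed in 7 of 16 alternatives. It was lost with TMM factors (-0.56, adjusted p 0.143), and when either WT B-1a or either WT B-2 library was left out (-1.09 to -0.96, adjusted p 0.0638 to 0.141).

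Between WT B-1a and WT B-2 cells IGKV9-128 was 2.50-fold higher in B-1a (1.32, SE 0.24, adjusted p 0.00428), or 1.55 relative to the median gene, where 3.57% of V genes passed. Leaving out any of the 4 wild-type libraries ended this call, with the log2 fold change between 1.17 and 1.46 and the adjusted p between 0.0741 and 0.159. IGKV3-9 had a log2 fold change of -1.65 (SE 0.52, adjusted p 0.0953), which did not pass. It passed without either Igll1-/- library (adjusted p 0.00238 and 0.00196), and was -2.70 without WT B-1a replicate 1 and -1.06 without WT B-1a replicate 2.

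The same comparisons among unproductive clonotypes leave out the productive expansions of other genes, and 32 V genes could be tested there. They count 928 of the 943 IGKV9-128 and 224 of the 236 IGKV3-9 clonotypes a further time. The mark also chose the genes, so the p-values here are not independent support for the comparisons above. Between Igll1-/- and WT B-1a cells, where 25.0% of V genes passed, IGKV9-128 was lower (-2.34, SE 0.33, adjusted p 0.00331), and IGKV3-9 had -1.87 (SE 0.77, adjusted p 0.118, and -0.80 without WT B-1a replicate 1). Leaving out WT B-1a replicate 1, WT B-1a replicate 2 or WT B-2 replicate 1 ended the call of IGKV9-128 (-2.48, -2.18 and -2.34, adjusted p 0.0874, 0.0624 and 0.0542). Between Igll1-/- B-1a and WT B-2 cells, where 25.0% passed, both members were lower, IGKV3-9 by -3.77 (SE 0.77, adjusted p 0.0293) and IGKV9-128 by -1.22 (SE 0.32, adjusted p 0.0423). Each of these lost its call without most single libraries, 4 of 6 for IGKV3-9 and 5 of 6 for IGKV9-128. Between WT B-1a and WT B-2 cells, where 9.38% passed, neither member did (IGKV9-128 1.11, SE 0.31, adjusted p 0.0760, and IGKV3-9 -1.89, SE 0.66, adjusted p 0.161). The IGKV3-9 value was -2.96 without WT B-1a replicate 1 and -1.29 without WT B-1a replicate 2.

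Clone sizes of IGKV9-128 were led by a few clonotypes that differed between libraries. In WT B-1a replicate 1 LQHASSPWT with IGKJ1 had 5554 reads, 59.7% of the gene, and in replicate 2 LQHASSPLT with IGKJ5 had 6966, 77.2%. The same CDR3s in the other replicate had 261 and 2194 reads. In the Igll1-/- libraries the largest clonotype was LQHASSPLT with 36 reads and LQHASSPYT with 386, so the second of these libraries owed 73.9% of its IGKV9-128 reads to 1 clonotype. In WT B-2, LQHASSPLT led both libraries with 1348 and 1251 reads. Clonotypes with at least 10 reads numbered 33 and 36 in WT B-1a, 2 and 4 in Igll1-/- B-1a, and 7 and 8 in WT B-2.

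IGKV3-9 clonotypes with at least 10 reads numbered 2 and 1 in WT B-1a, 0 and 1 in Igll1-/- B-1a, and 5 and 7 in WT B-2. Single-read clonotypes made up 57.1% to 78.7% of IGKV9-128 and 45.5% to 78.2% of IGKV3-9 clonotypes per library. The difference from other unproductive clonotypes of the same library averaged -6.37 percentage points (SD 9.10, lower in 5 of 6 libraries) and -9.95 points (SD 13.6, lower in 4 of 6). Neither passed an exact two-sided sign-flip permutation test over the 6 libraries (adjusted p 0.188 for each, over 2 tests), in which the smallest possible p is 0.0313.

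The J genes of IGKV9-128 differed between replicates of the B-1a groups. With IGKJ1 it had 123 and 48 clonotypes in WT B-1a, 6 and 10 in Igll1-/- B-1a, and 21 and 25 in WT B-2. With IGKJ5 these were 100 and 188, 29 and 22, and 80 and 92, and with IGKJ2 36 and 66, 4 and 28, and 30 and 24. In the Igll1-/- libraries IGKJ5 thus took 74.4% and 36.1% of its clonotypes and IGKJ2 10.3% and 45.9%. WT B-1a replicate 1, whose largest clonotype used IGKJ1, had 47.1% of its IGKV9-128 clonotypes with IGKJ1, and the other 5 libraries had 15.4% to 17.4%. Against other unproductive clonotypes of the same library the IGKJ1 share differed by -2.41 points on average (SD 12.8, lower in 5 of 6) and the IGKJ5 share by 1.03 points (SD 13.7, higher in 4 of 6), and neither passed the exact permutation test (adjusted p 0.906 for both, over 4 tests).

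Counted by clonotypes, IGKV3-9 was seldom joined to IGKJ1. It had 3 and 0 such clonotypes in WT B-1a, 1 and 0 in Igll1-/- B-1a, and 6 and 10 in WT B-2. Its IGKJ1 share was below that of other unproductive clonotypes in 6 of 6 libraries, by 16.4 points on average (SD 6.92). The exact two-sided p was 0.0313, the smallest that 6 libraries can give, and 0.125 after adjustment over the 4 J tests, so it failed the correction. By reads the mean difference was -12.4 points (SD 11.2). The IGKJ1 share of reads was then 19.4% against 17.2% in WT B-2 replicate 2, 7.14% against 7.01% in Igll1-/- B-1a replicate 1, and lower than the reference elsewhere. With IGKJ5 the mean difference was -4.54 points (SD 16.3, adjusted p 0.906 in the same exact test). The IGKV3-9 shares of the Igll1-/- libraries rest on 6 and 4 clonotypes.

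**Figure D5:**
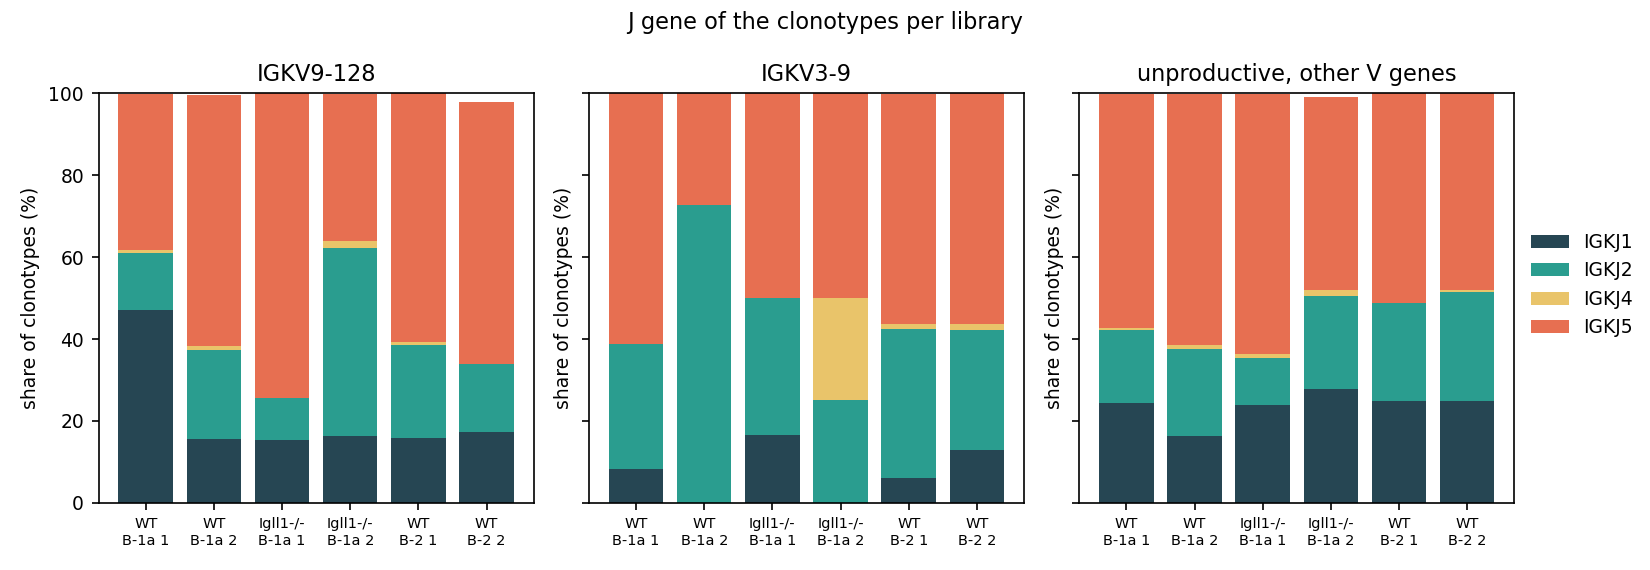
Share of clonotypes joined to each J gene (vertical axis, %) per library for IGKV9-128, IGKV3-9 and the unproductive clonotypes of other V genes; clonotypes listed with several J genes are not drawn, so a bar can end below 100%. IGKJ1 (dark, bottom) takes 47.1% of IGKV9-128 in WT B-1a replicate 1, and in IGKV3-9 it is lower than in the other unproductive clonotypes of every library.

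Some of these clonotypes recurred between libraries. IGKV9-128 had 616 distinct clonotypes, of which 160 (26.0%) were in at least 2 libraries and 6 in all 6. Besides the 3 printed above, the latter were LQHASYPLT, QQHYSTPLT and QQYYSYPLT, each with IGKJ5 and with 51, 34 and 28 reads in all. The 6 held 82.0% of the gene's reads. LQHASYPLT, QQHYSTPLT and QQYYSYPLT do not begin with LQHASSP, and their highest identity to the V gene was 100%, 96.1% and 94.1%. The 26.0% includes clonotypes without the common start, of which 48.7% were also listed under another V gene in the same library. IGKV3-9 had 177 distinct clonotypes, of which 40 (22.6%) were in at least 2 libraries, and the 3 in all 6 libraries held 76.2% of its reads. Of unproductive clonotypes of other genes 15.6% were in at least 2 libraries, and of productive ones of other genes 31.9%. These shares grow with the number of clonotypes a gene has and were not tested.

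Between groups, IGKV9-128 in WT B-1a had 473 distinct clonotypes, in Igll1-/- B-1a 91 and in WT B-2 228. WT B-1a and Igll1-/- B-1a shared 49, which was 10.4% of the former and 53.8% of the latter. WT B-1a and WT B-2 shared 123 (26.0% and 53.9%), and Igll1-/- B-1a and WT B-2 shared 38 (41.8% and 16.7%). Of IGKV3-9, WT B-1a had 43, Igll1-/- B-1a 7 and WT B-2 147 distinct clonotypes. The 3 that Igll1-/- B-1a shared with WT B-1a were the 3 found in all libraries, and WT B-1a and WT B-2 shared 17 (39.5% and 11.6%). Of the unproductive clonotypes of other genes, WT B-1a and Igll1-/- B-1a shared 211 (18.9% of the former and 15.2% of the latter), WT B-1a and WT B-2 269 (24.1% and 20.7%), and Igll1-/- B-1a and WT B-2 276 (19.9% and 21.3%). Among productive clonotypes of other genes the same shares were 34.8% and 37.1%, 43.5% and 35.2%, and 41.2% and 31.4%. Each share depends on how many clonotypes both groups have, and the differences were not tested.

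The V gene whose share of clonotypes was most like that of IGKV9-128 over the 6 libraries, by Pearson's r of the log2 shares, was IGKV14-126 (r = 0.99), followed by IGKV12-89 and IGKV3-5 (0.95 and 0.94). IGKV14-126 took 4.89% and 5.29% of clonotypes in WT B-1a, 0.684% and 0.735% in Igll1-/- B-1a, and 1.65% and 1.47% in WT B-2. For 66 of the 747 IGKV9-128 clonotypes without the common start, the same library listed the CDR3 and J under IGKV14-126 too. No r was computed without them. For IGKV3-9 the most alike were IGKV4-81 (0.94), IGKV4-69 (0.93) and IGKV6-25 (0.93). These values describe 6 points that share their libraries and depth, and the most alike were picked from all V genes tested.

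Genes near the members were read by the number after the hyphen of their names, which follows the order along the locus. Of the 8 tested V genes within 5 positions of IGKV9-128, 1 was lower and none higher in Igll1-/- than in WT B-1a cells, where 9.52% of all V genes tested were lower and 8.33% higher, with a median log2 fold change of -0.62 beside -0.17 for all 84 genes. The lowest were IGKV14-126 (-2.84, adjusted p 4.03e-06) and IGKV1-132 (-1.08, adjusted p 0.365), and the highest IGKV14-130 (1.20, adjusted p 0.296) and IGKV9-123 (-0.04, adjusted p 0.954). Of the 6 tested near IGKV3-9, 1 was lower and 2 were higher, with a median of -0.27. The lowest were IGKV3-5 (-1.46, adjusted p 0.0437) and IGKV3-4 (-0.48, adjusted p 0.522), and the highest IGKV3-10 (1.57, adjusted p 0.0264) and IGKV3-7 (1.18, adjusted p 0.00894). Of 17 other V genes mostly not tagged F, 8 could be tested, and none was lower and 1 higher, with a median of -0.62. The lowest of these were IGKV12-40 (-1.55, adjusted p 0.158) and IGKV4-56 (-1.30, adjusted p 0.360), and the highest IGKV15-103 (1.47, adjusted p 0.000342) and IGKV4-60 (0.93, adjusted p 0.254).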

How the data were processed

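Rearranged Igk was amplified from genomic DNA of sorted cells with a degenerate V primer, with further primers for some V segments, and per the labels products of 100 to 280 bp were selected on a gel, although representative sequences of up to 292 bases are listed, so how well its primer bound also bears on the share of a V gene. The authors assigned the reads with IMGT/HighV-QUEST and deposited 1 table per library, with a row per clonotype and the count of its reads. Per the file headers, the tables also give the percent identity to the germline V gene as deposited and the length in bases of the representative sequence, whose computation is not described in the sources used here. The genome build is not given in the sources used here, so no coordinates are printed.

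From these tables each clonotype named with a single V gene was counted once on it. Clonotypes listed with several V genes, 5.72% to 6.68% of each table, counted toward the total only, and 11 of them named IGKV9-128. V genes that reached 10 clonotypes in 2 or more of the 6 libraries were compared with edgeR 4.0.16 (R 4.3.3) and its quasi-likelihood test, all groups in 1 fit, library size set to all clonotypes, threshold 0.05 after Benjamini-Hochberg adjustment. The test was checked on simulated counts with a fixed spread, the same in every group and not estimated from these libraries. Of genes changed 4-fold there, 96.9% were recovered among 84 V genes and 78% among the 32 of the unproductive fit. The spread between replicates here differed by group, so these figures do not give the recovery in these data. J genes and single-read shares were compared by exact sign-flip permutation over libraries. With 2 libraries against 2, an exact permutation of labels cannot give a p below 0.333, so none was run. Alternatives were TMM factors, DESeq2 1.42.0, no filter, reads, a minimum of 2 or of 10 reads, the V gene named first, a replicate block, another reference and leaving out each library.

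The named genes were the members, the 3 V genes most like each, those at the ends of lists of neighbours within 5 positions and of V genes mostly not tagged F, and the CDR3s largest in a library or found in all 6. Members, lists and tests were chosen with earlier results of these data known. RefSeq gave the class of both genes. The Igh tables and the deposited annotation of CDR1 and CDR2 were not used here.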

Additional observations from a re-analysis of the deposited data

How the results depend on the processing

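In Igll1-/- against WT B-1a cells the fall of IGKV9-128 passed in all 16 alternatives over all clonotypes. Among unproductive clonotypes it passed in 12 of 16, and counting reads ended it (-3.28, adjusted p 0.145). IGKV3-9, not past the threshold over all clonotypes, passed without a filter (-2.02), with a replicate block (-1.92), by reads (-4.39), without WT B-1a replicate 2 (-2.61) and without Igll1-/- B-1a replicate 1 (-2.48). With near-identical clonotypes merged the log2 fold change of IGKV3-9 over all clonotypes was -0.83 (adjusted p 0.299). Its unproductive share reversed by reads (0.25, adjusted p 0.839).

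For IGKV9-128 in Igll1-/- B-1a against WT B-2 cells the call over all clonotypes was lost with TMM factors (-0.56), with DESeq2 (-0.50), with at least 10 reads (-0.57), with near-identical clonotypes merged (-0.54) and with only the common CDR3 start counted (-1.30). The last 2 settings were chosen after seeing the data. TMM factors moved the median of all V genes by 0.26, 0.46 and 0.20 on the log2 scale in the 3 comparisons, in the order of the report. Among unproductive clonotypes this call was lost with DESeq2 (-1.08), no filter (-1.22), reads (-2.29), at least 10 reads (-0.74), merging (-0.80) and the common start (-1.48). That of IGKV3-9 was lost by reads (-4.45) and by merging (-2.33).

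In WT B-1a against WT B-2 cells the IGKV9-128 call was lost by reads (1.998) and with the common start (1.38). IGKV3-9 passed without a filter (-1.65), with the replicate block (-1.79), at least 2 reads (-1.44), merging (-1.44) and without either Igll1-/- library (-1.65 each). Among unproductive clonotypes IGKV9-128 passed with TMM factors (1.37), the replicate block (1.10), at least 2 reads (1.27), at least 10 reads (2.06) and merging (0.98), and IGKV3-9 at 2 reads (-1.98). IGKV3-9 had too few clonotypes with at least 10 reads to be tested.

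With 1 library left out, the log2 fold changes in Igll1-/- against WT B-1a ranged from -2.54 to -2.18 for IGKV9-128 and from -2.61 to -0.97 for IGKV3-9. In Igll1-/- against WT B-2 they ranged from -1.22 to -0.86 and from -4.13 to -3.28, and in WT B-1a against WT B-2 from 1.17 to 1.46 and from -2.70 to -1.06. Among unproductive clonotypes the ranges were -2.58 to -2.13 for IGKV9-128 and -2.47 to -0.80 for IGKV3-9 in the first comparison, -1.47 to -1.02 and -4.21 to -3.40 for IGKV9-128 and IGKV3-9 in the second, and 0.95 to 1.26 and -2.96 to -1.29 in the third. Removing a single library thus moved the unproductive value of IGKV3-9 by more than 1.5 times between WT B-1a and either of the other groups. The lone library left in a group was then assumed to vary like the others. V genes called over all clonotypes numbered 7 to 31, 6 to 39 and 1 to 12, against 15, 19 and 3 with all libraries. Among unproductive clonotypes they numbered 0 to 11, 0 to 5 and 0 to 5, against 8, 8 and 3.

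The J and single-read differences that did not pass also changed sign in places. By reads the IGKJ1 and IGKJ5 differences of IGKV9-128 were 2.16 and -0.31 points, and against all other clonotypes the IGKJ5 difference of IGKV3-9 was 1.02 points. Against that reference the single-read differences were 6.96 points for IGKV9-128 and 3.38 for IGKV3-9. With 1 library left out the IGKJ5 difference ranged from -1.94 to 5.02 points for IGKV9-128 and from -7.13 to 1.33 for IGKV3-9. The cause of these changes was not tested.

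Same-numbered libraries showed no shared deviation in V gene shares, with correlations of 0.031, 0.0067 and -0.19 over the 84 V genes. These values cannot show whether same-numbered libraries were prepared together. The replicate block changed no call other than those given, and with it 17, 18 and 8 V genes were called over all clonotypes and 8, 5 and 4 among unproductive ones. The small counts of IGKV3-9 in Igll1-/- B-1a, 6 and 4 clonotypes, limit every statement on it there.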
